A study of Mus musculus with 18 samples.

Results

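Chemokines are small secreted proteins that steer migrating leukocytes, and chemokine receptors are the G-protein-coupled receptors that read them. The members described here are the 61 genes on the array that encode a chemokine, a chemokine receptor or an atypical chemokine receptor. They were chosen by symbol alone: a probe belonged when its transcript accession maps in RefSeq to a mouse symbol that starts with Ccl, Cxcl, Ccr or Cxcr and a number, or that is Cx3cl1, Cx3cr1, Xcl1, Xcr1, Pf4, Ppbp or Ackr1 to Ackr4. The 61 genes were read by 72 of the 39429 probes, and 38 of them are ligands and 23 are receptors. A further 8 symbols that fit the rule had no probe and are not analysed here: Ccl16-ps, Ccl19-ps1, Ccl19-ps2, Ccl19-ps3, Ccl21c, Ccl21d, Ccl27b and Cxcl11.

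The cells were macrophages grown from the bone marrow of male C57BL/6J mice aged 8 weeks, kept for 7 days in culture with M-CSF, the growth factor of macrophages, and gene expression was measured on Agilent arrays of 1 colour. The 18 samples form 6 groups of 3: wild-type and PHD3-/- cells as controls with an oxygen label of 20, at an oxygen label of 1, and starved with an oxygen label of 20. The oxygen labels carry no unit, and whether starvation was applied to the cultures or to the mice is not given. PHD3, encoded by Egln3, is an enzyme that uses oxygen to hydroxylate hypoxia-inducible factors, which are then degraded, and the comparisons ask how each stress changed the chemokine system in either genotype. What part of Egln3 was deleted, and where, is not given either, and the design text speaks of 3 mice each without tying a mouse to a sample, so p-values measure the spread between these samples.

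Chemokine ligands are named after the spacing of their first cysteines. CC ligands such as Ccl2 mainly attract monocytes, macrophages, lymphocytes and eosinophils. CXC ligands with a glutamate-leucine-arginine (ELR) motif, such as Cxcl1 and Cxcl2, attract neutrophils through Cxcr2, while Cxcl9 and Cxcl10 are induced by interferon and attract T and NK cells through Cxcr3. Atypical receptors bind chemokines without G-protein signalling and remove or redistribute them. Macrophages are a main source of inflammatory chemokines and follow them themselves through receptors such as Ccr2 and Cx3cr1.

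Every array held 43020 spots. Between 56.1% and 65.4% of them were well above background by the scanner software's own flag, the median local background lay between 20 and 25, and no spot was saturated. Values are log2 signals minus each array's own 75th percentile, so that 0 marks this percentile, and since probes differ in response, levels of different genes are not compared. Among the wild-type controls replicate 1, among the knockout controls replicate 3 and among the starved wild-type samples replicate 3 stood apart from the rest of the group, with root mean square log2 differences from the mean of the others of 0.311, 0.370 and 0.351 over 20251 probes. The range over all 18 samples was 0.211 to 0.370. At oxygen 1, replicates 2 and 3 of the wild-type samples stood as far, at 0.364 and 0.342. Egln3 itself rose by 6.36 in wild-type and 6.79 in knockout samples at oxygen 1 (limma adjusted p = 8.33e-13 and 3.21e-13), so its signal is no check of the genotype, and samples are called knockout by their labels. All 7 macrophage markers on the array were well above background in every sample. Their levels were not constant: in either genotype 2 rose and 2 fell at oxygen 1, and 1 rose and 0 fell after starvation. At oxygen 1, 5 of 6 genes known to respond to low oxygen rose in wild type and 5 in knockout. The sixth, Car9, a carbonic anhydrase, fell by 1.03 and 1.05 on the log2 scale (limma adjusted p = 2.19e-05 and 1.56e-05). Of 6 genes of the amino acid and energy stress responses, 1 rose and 2 fell after starvation in wild type and 1 rose and 1 fell in knockout: Ddit4 rose (0.55 and 0.87), and Asns (-0.66) and Trib3 (-0.84) fell in wild type and Chac1 (-0.96) in knockout. In a bulk sample, fewer cells of a type and less RNA per cell cannot be told apart.

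Of the 61 members, 31 were well above background in all 18 samples and 15 in none. A gene was tested when its probe was well above background in at least 3 samples, which 41 members were. The 15 members never well above background were Ackr4, Ccl1, Ccl11, Ccl17, Ccl22, Ccl24, Ccl26, Ccl28, Ccr1, Ccr4, Ccr6, Cxcr1, Cxcr5, Xcl1 and Xcr1. They include the ligands of Ccr4 (Ccl17 and Ccl22) and the eotaxin ligands of Ccr3 (Ccl11, Ccl24 and Ccl26). Cxcl15 and Ackr3 were well above background in 2 samples each, and Ackr1, Ccl20 and Cxcl17 in 1 sample each, too few to be tested. Ackr2 and Ccr10 passed the filter through the groups at oxygen 1 alone, so a difference between those groups and the controls was built into their selection.

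**Figure D1:**
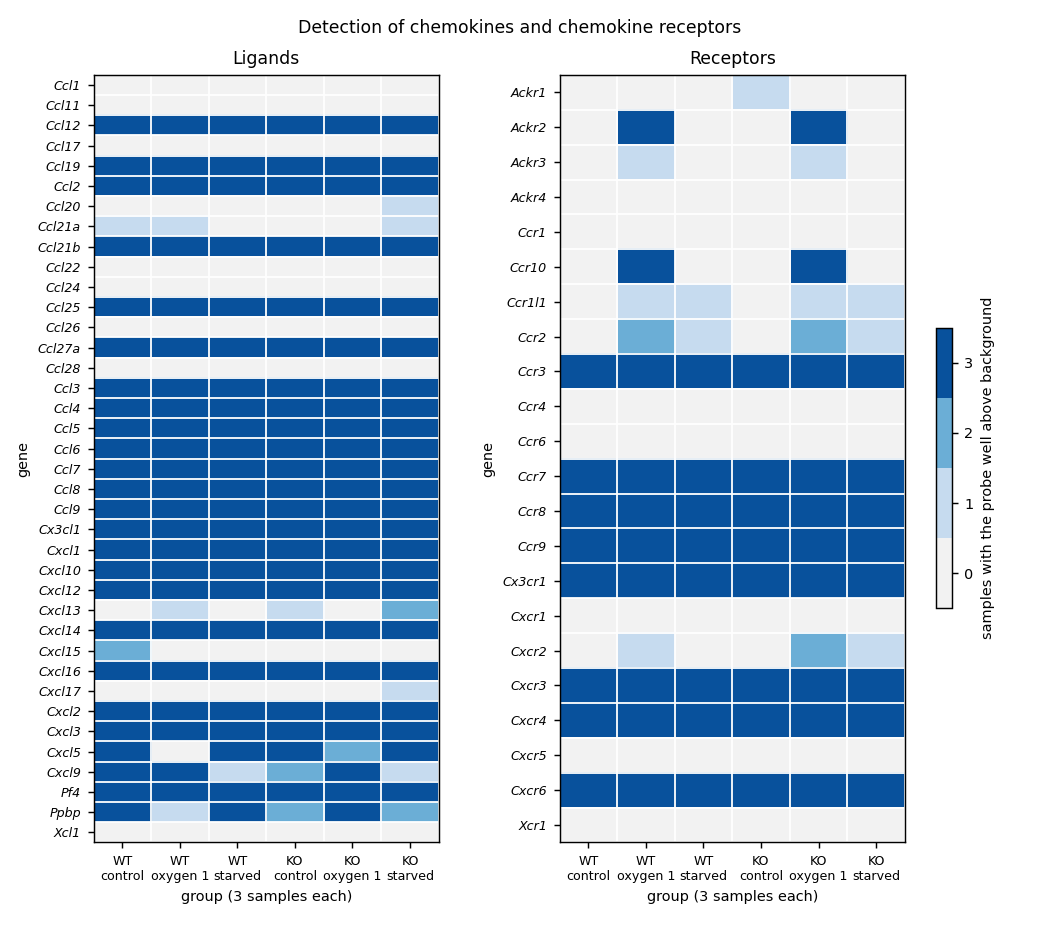
Number of samples, of 3 in each of the 6 groups, in which the probe of a member was well above background, for ligands (left) and receptors (right); rows are genes and columns are groups. Ackr2 and Ccr10 are dark in both groups at oxygen 1 and empty elsewhere, and Cxcl5 is at 3 samples in every group except at oxygen 1, where it is at 0 in wild type and 2 in knockout.

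At oxygen 1, 27 of the 41 tested members passed the limma threshold of an adjusted p of 0.05 in wild-type cells, 21 rising and 6 falling, against 39.1% of all 20568 genes tested (20.8% higher and 18.3% lower). In knockout cells 23 members passed, 20 rising and 3 falling, against 40.2% of all genes (21.6% and 18.6%). The receptors moved one way: 11 of 14 tested receptors rose and none fell in either genotype, with a median log2 change of 1.75 in wild type and 1.48 in knockout. Of these receptors Ackr2, Ccr10, Ccr2, Cxcr2 and Ccr1l1 were well above background in no control sample and entered the test through stressed samples. Their rise is thus in part built into the count and into the median. Among genes well above background in all 18 samples, 6 receptors rose and none fell in each genotype, against 22.5% and 23.3% of all genes higher. With another background correction, normexp, 4 receptors rose in wild type and 5 in knockout and none fell, against 10.3% and 11.6% of all genes higher. Ligands moved both ways, 10 of 27 rising and 6 falling in wild type and 9 rising and 3 falling in knockout. The median change of all 41 members was 0.52 in wild type and 0.44 in knockout, beside 0.032 and 0.03 over all genes. Samples at oxygen 1 did not overlap the controls for 27 members in wild type, against 50.2% of all genes, and for 29 in knockout, against 49.3%.

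After starvation 19 members passed in wild-type cells, 15 rising and 4 falling, where 12.7% of all genes passed (6.57% higher and 6.11% lower). In knockout cells 17 passed, 13 rising and 4 falling, where 13.7% of all genes passed (7.25% and 6.45%). Here 10 ligands rose and 4 fell in wild type, and 5 of 14 tested receptors rose and none fell (3 with normexp, against 3.75% of all genes higher). In knockout cells 9 ligands rose and 4 fell, and 4 receptors rose and none fell. Of these receptors Ccr2 and Ccr1l1 were well above background in no control sample, so their rise is in part built into the counts. Among genes well above background in all 18 samples, 3 receptors rose in each genotype, against 7.25% and 8.11% of all genes higher. Median changes of the members were 0.22 and 0.23 in wild type and knockout, beside 0.018 and 0.013 over all genes. Starved samples did not overlap the controls for 24 members in wild type and 21 in knockout, against 29.9% and 30.8% of all genes. Both stresses are compared with the same controls, so their changes are given side by side and are not independent of each other. Of the 27 members that passed at oxygen 1 in wild type, 23 also passed in knockout, all in the same direction, which is 85.2% of the wild-type list and 100% of the knockout list. Of the 19 after starvation in wild type, 17 passed in knockout, again all in the same direction, 89.5% and 100% of the lists.

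The arrays lay on 5 slides, of which 1 held both wild-type controls and wild-type samples at oxygen 1. For each other comparison of a stress with its controls, 3 slides held both groups. Samples at oxygen 1 and starved samples shared 1 slide in wild type and 2 in knockout. With the slide as a fixed block, 22 and 23 members passed at oxygen 1 in wild type and knockout, and 18 and 17 after starvation, against 33.8%, 39.2%, 11.6% and 12.6% of all genes. Within every slide that held both groups, 27 of 27, 22 of 23, 19 of 19 and 17 of 17 called members kept their direction, the exception being Ccr10 in knockout cells at oxygen 1. The normexp background correction ended 13 of the 27 wild-type calls at oxygen 1: Ackr2, Ccl9, Ccr10, Ccr1l1, Ccr2, Ccr8, Ccr9, Cx3cl1, Cxcl12, Cxcl14, Cxcl16, Cxcl2 and Cxcr2. In knockout cells normexp ended the calls of Ackr2, Ccr10, Ccr1l1, Ccr2, Ccr9, Cxcl16 and Cxcr2 at oxygen 1. After starvation it ended those of Ccl12, Ccl25, Ccl8, Ccl9, Ccr1l1, Ccr2, Cx3cl1 and Cxcl16 in wild type and Ccl12, Ccl25, Ccr1l1, Cx3cl1, Cx3cr1, Cxcl16 and Cxcl3 in knockout. Values in brackets after a setting that ended a call are log2 changes under that setting.

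**Figure D2:**
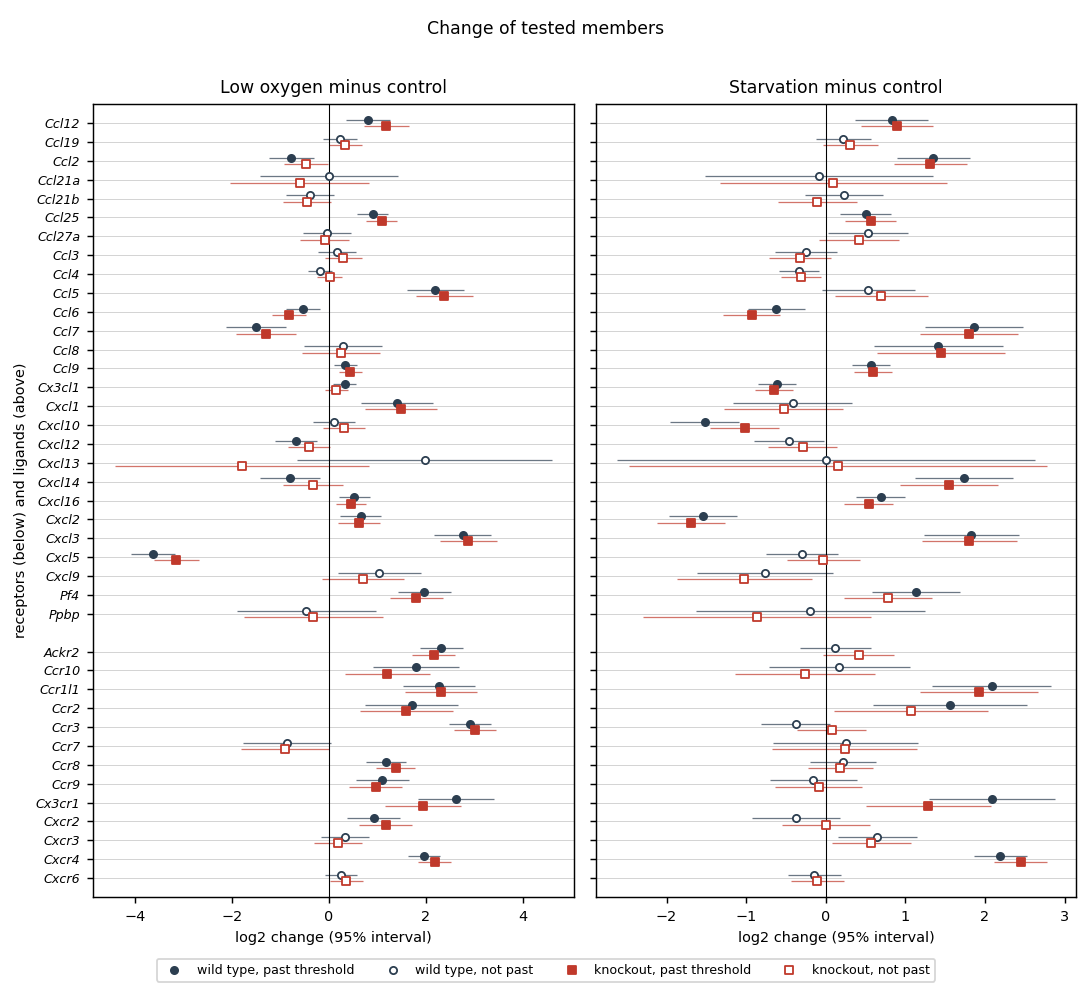
Log2 change (horizontal axis, with 95% intervals) of tested members at oxygen 1 (left) and after starvation (right) against controls, with ligands above and receptors below; circles are wild type, squares knockout, and filled symbols passed the limma threshold. Filled receptor symbols lie right of 0 in both panels, while ligands lie on both sides, with Cxcl5 at -3.64 and Cxcl3 at 2.76 in wild type at oxygen 1.

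The ligands of Ccr2, which draw monocytes out of the blood, were led by Ccl7 and Ccl2, and these moved in opposite directions under the stresses. Ccl7 read 2.80, 3.57 and 3.43 in the wild-type controls, 1.45, 1.92 and 1.92 at oxygen 1 and 5.06, 5.28 and 5.04 after starvation. Ccl7 in knockout cells read 3.35, 3.66 and 2.52 in the controls, 1.81, 1.78 and 2.03 at oxygen 1 and 4.41, 5.29 and 5.22 after starvation. The oxygen 1 samples lay below all controls and the starved samples above them in both genotypes. Ccl7 fell at oxygen 1 by 1.50 ± 0.29 in wild-type and by 1.30 ± 0.29 in knockout cells (limma adjusted p = 0.000757 and 0.00207). Ccl7 rose after starvation by 1.86 ± 0.29 in wild-type and by 1.80 ± 0.29 in knockout cells (limma adjusted p = 0.000492 and 0.000621). These are falls of 2.83-fold and 2.47-fold and rises of 3.63-fold and 3.47-fold. Within slides the low oxygen change was -0.89 in wild type, and the starvation change ranged over 1.06 to 2.70 in knockout.

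Ccl2, the main monocyte chemoattractant, followed Ccl7 with smaller changes. Ccl2 read 5.12, 5.21 and 5.27 in the wild-type controls, 4.31, 4.92 and 4.03 at oxygen 1 and 6.49, 6.58 and 6.58 after starvation. Ccl2 in knockout cells read 4.83, 5.14 and 4.91 in the controls, 4.27, 4.61 and 4.58 at oxygen 1 and 5.78, 6.56 and 6.48 after starvation. All starved samples lay above their controls, and those at oxygen 1 lay below them. Ccl2 rose after starvation by 1.35 ± 0.21 in wild-type and by 1.31 ± 0.21 in knockout cells (limma adjusted p = 0.000604 and 0.000757). At oxygen 1 it fell by 0.78 ± 0.21 in wild type (limma adjusted p = 0.00977), and the change of -0.48 ± 0.21 in knockout did not pass (limma adjusted p = 0.0931). On the slide that held both wild-type groups, the low oxygen change of Ccl2 was -0.19. Ccl2 lost its low oxygen call in wild type without replicate 3 of the wild-type samples at oxygen 1 (-0.58) or with the slide as a fixed block (-0.59).

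Ccl12, a further ligand of Ccr2 in mice, rose under both stresses. Ccl12 read 2.54, 2.74 and 2.83 in the wild-type controls, 3.36, 3.93 and 3.25 at oxygen 1 and 3.16, 3.49 and 3.94 after starvation. Ccl12 in knockout cells read 2.40, 2.49 and 2.30 in the controls, 3.29, 3.64 and 3.81 at oxygen 1 and 2.98, 3.42 and 3.47 after starvation. Its control samples lay below every stressed sample of the same genotype. Ccl12 rose at oxygen 1 by 0.81 ± 0.21 in wild-type and by 1.18 ± 0.21 in knockout cells (limma adjusted p = 0.00756 and 0.000442). Ccl12 rose after starvation by 0.83 ± 0.21 in wild-type and by 0.89 ± 0.21 in knockout cells (limma adjusted p = 0.0185 and 0.0112). Within slides its low oxygen change was 1.39 in wild type and 0.64 to 1.47 in knockout. Ccl12 lost its starvation call in wild type without wild-type control replicate 1 (0.74), without replicate 3 of the starved wild-type samples (0.62) or without the 3 samples that stood apart (0.54). Ccl12 lost its starvation call in knockout cells without replicate 3 of the starved knockout samples (0.80). Ccl8, which binds Ccr2 and other CC receptors, rose after starvation. Ccl8 read 1.46, 1.76 and 2.80 in the wild-type controls, 1.68, 2.25 and 2.97 at oxygen 1 and 2.97, 3.02 and 4.27 after starvation. Ccl8 in knockout cells read 2.07, 2.18 and 2.35 in the controls, 2.50, 2.29 and 2.53 at oxygen 1 and 3.51, 3.77 and 3.65 after starvation. Replicate 3 of each wild-type group was the highest of its group, and the starved samples lay above their controls. Ccl8 rose after starvation by 1.41 ± 0.38 in wild-type and by 1.44 ± 0.38 in knockout cells (limma adjusted p = 0.0214 and 0.0184). At oxygen 1 the changes were 0.29 ± 0.38 and 0.24 ± 0.38, which did not pass (limma adjusted p = 0.573 and 0.654). Ccl8 lost its starvation call in wild type without wild-type control replicate 1 or 2 (1.14 and 1.29), without replicate 3 of the starved wild-type samples (0.99) or without the 3 samples that stood apart (0.71). Ccl8 lost its starvation call in knockout cells without knockout control replicate 1 or 2 (1.38 and 1.43) or without replicate 2 or 3 of the starved knockout samples (1.38 and 1.44).

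**Figure D3:**
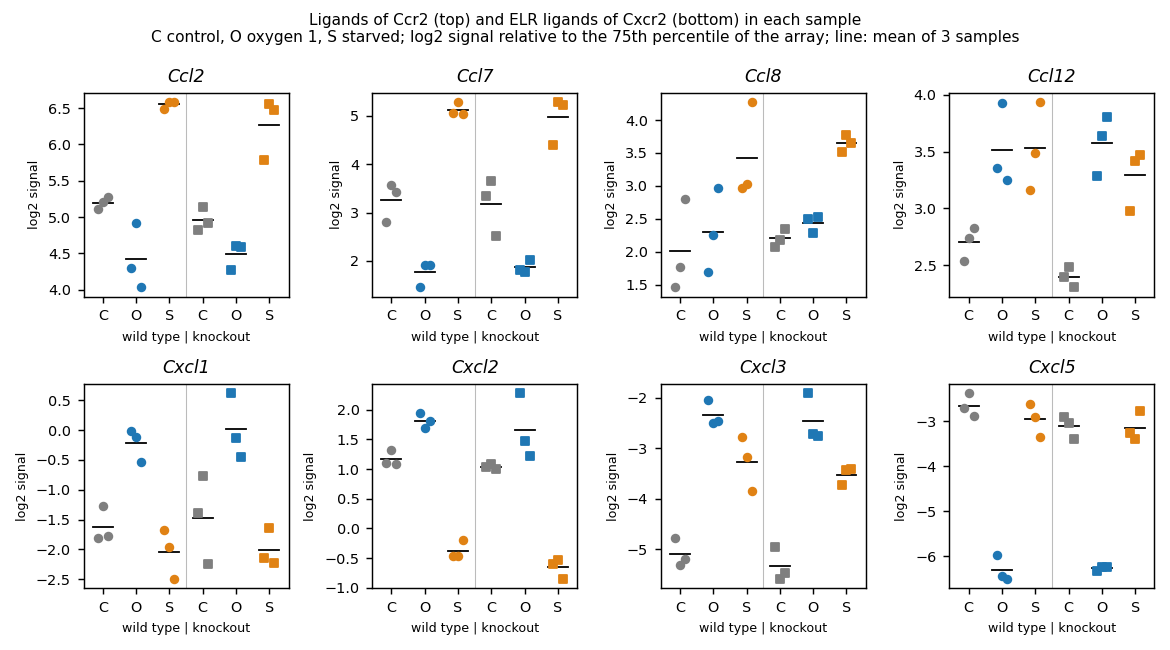
Log2 signal minus each array's 75th percentile (vertical axis, a separate range for each gene) in each of 18 samples for the Ccr2 ligands Ccl2, Ccl7, Ccl8 and Ccl12 (top) and the ELR ligands Cxcl1, Cxcl2, Cxcl3 and Cxcl5 (bottom); grey is control, blue oxygen 1, orange starved, circles are wild type and squares knockout, and lines are means of 3 samples. Ccl2 and Ccl7 are lowest at oxygen 1 and highest after starvation, while Cxcl2 shows the reverse order.

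Promoter windows are shown for the ELR ligands Cxcl3, Cxcl1 and Cxcl2, which lie in 1 genomic cluster and of which Cxcl3 rose, Cxcl2 fell and Cxcl1 did not pass after starvation. Those of Ccr3, Cxcl10 and Cxcr4 are shown because these genes rose at oxygen 1, fell after starvation and rose under both stresses, in that order. RefSeq windows (build GRCm38.p6) run from 250 bases before to 50 bases after the transcript start, and 47 of the 61 members had at least 1 window. Capitals mark, on either strand, the consensus of the inflammatory factor NF-kappaB, the cores ACGTG and GCGTG that hypoxia-inducible factors bind, and GAAA followed after any 2 bases by GAAA, a core of interferon-stimulated response elements. Overlapping matches form 1 run of capitals, as where an NF-kappaB match on the window's strand overlaps another on the opposite strand by all but 1 base. The windows of Cxcl3 (chr5:90785851-90786150 on the plus strand), Cxcl1 (chr5:90890995-90891294 on the plus strand) and Cxcl2 (chr5:90903649-90903948 on the plus strand) are followed by those of Ccr3 (chr9:124021721-124022020 on the plus strand), Cxcl10 (chr5:92348840-92349139 on the minus strand) and Cxcr4 (chr1:128592250-128592549 on the minus strand).
Cxcl3: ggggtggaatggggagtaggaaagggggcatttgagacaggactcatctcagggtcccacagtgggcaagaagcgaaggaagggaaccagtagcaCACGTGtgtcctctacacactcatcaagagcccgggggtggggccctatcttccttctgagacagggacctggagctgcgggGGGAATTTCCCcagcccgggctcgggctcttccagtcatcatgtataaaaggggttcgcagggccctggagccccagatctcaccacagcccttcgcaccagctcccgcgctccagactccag
Cxcl1: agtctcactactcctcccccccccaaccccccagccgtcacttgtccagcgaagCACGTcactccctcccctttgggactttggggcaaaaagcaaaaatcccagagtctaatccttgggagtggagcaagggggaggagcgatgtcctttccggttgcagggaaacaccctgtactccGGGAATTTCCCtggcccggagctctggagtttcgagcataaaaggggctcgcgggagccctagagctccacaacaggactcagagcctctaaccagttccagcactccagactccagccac
Cxcl2: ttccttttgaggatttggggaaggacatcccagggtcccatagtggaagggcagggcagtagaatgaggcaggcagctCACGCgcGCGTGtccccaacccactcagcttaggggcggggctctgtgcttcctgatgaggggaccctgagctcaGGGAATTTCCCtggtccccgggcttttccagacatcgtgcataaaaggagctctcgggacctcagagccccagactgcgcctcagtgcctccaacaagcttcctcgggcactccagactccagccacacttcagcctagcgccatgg
Ccr3: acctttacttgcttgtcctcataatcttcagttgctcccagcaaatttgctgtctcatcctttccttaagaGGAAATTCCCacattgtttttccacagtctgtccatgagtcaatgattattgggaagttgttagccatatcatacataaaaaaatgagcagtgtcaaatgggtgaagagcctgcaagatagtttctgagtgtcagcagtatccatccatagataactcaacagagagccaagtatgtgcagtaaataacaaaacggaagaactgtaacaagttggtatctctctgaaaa
Cxcl10: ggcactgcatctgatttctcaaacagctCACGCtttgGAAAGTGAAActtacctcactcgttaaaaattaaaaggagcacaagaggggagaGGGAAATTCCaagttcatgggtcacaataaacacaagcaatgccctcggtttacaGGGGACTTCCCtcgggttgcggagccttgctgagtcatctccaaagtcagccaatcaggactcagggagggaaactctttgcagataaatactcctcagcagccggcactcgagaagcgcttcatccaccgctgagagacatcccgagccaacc
Cxcr4: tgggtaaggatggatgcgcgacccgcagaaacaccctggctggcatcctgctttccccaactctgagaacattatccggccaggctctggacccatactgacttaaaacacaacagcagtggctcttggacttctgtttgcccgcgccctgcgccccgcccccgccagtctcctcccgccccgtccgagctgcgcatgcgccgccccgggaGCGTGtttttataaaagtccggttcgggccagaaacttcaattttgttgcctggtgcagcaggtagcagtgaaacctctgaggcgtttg

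Cxcl3, Cxcl1 and Cxcl2 each hold GGGAATTTCC, which begins 73, 71 and 97 bases before the start, and Ccr3 holds its reverse complement 179 bases before the start. This sequence was picked because the windows of Cxcl3, Cxcl1 and Cxcl2 share it, so its presence in those genes was fixed in advance. It is in 29 of all 32851 windows (0.0883%), and these 4 genes are the members among them. The NF-kappaB consensus as a whole is in 8.46% of all windows and in 12 of 51 member windows, Cxcl10 holding it at 159 and 104 bases before the start. ACGTG is in 19.6% of all windows and in 10 of those of members, Cxcl3 and Cxcl1 among them. GCGTG is in 32.4% of all and in 20 of those of members, Cxcl2, Cxcl10 and Cxcr4 among them. The repeated GAAA is in 3.44% of all and in 3 of those of members, Ccl19, Cxcl10 and Cxcl14. A match describes the letters of the window and does not show that a factor binds there.

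Among the ELR ligands, which attract neutrophils, Cxcl3 rose most, and it did so under both stresses. Cxcl3 read -4.78, -5.32 and -5.19 in the wild-type controls, -2.05, -2.51 and -2.45 at oxygen 1 and -2.78, -3.17 and -3.85 after starvation. Cxcl3 in knockout cells read -4.95, -5.59 and -5.47 in the controls, -1.91, -2.72 and -2.75 at oxygen 1 and -3.73, -3.44 and -3.42 after starvation. Every stressed sample lay above every control of its genotype. Cxcl3 rose at oxygen 1 by 2.76 ± 0.28 in wild-type and by 2.88 ± 0.28 in knockout cells (limma adjusted p = 1.93e-06 and 1.20e-06). Cxcl3 rose after starvation by 1.83 ± 0.28 in wild-type and by 1.80 ± 0.28 in knockout cells (limma adjusted p = 0.000424 and 0.000443). These are rises of 6.77-fold and 7.34-fold at oxygen 1 and of 3.55-fold and 3.49-fold after starvation.

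Cxcl1, a ligand of Cxcr2 released early in inflammation, rose at oxygen 1. Cxcl1 read -1.81, -1.28 and -1.78 in the wild-type controls, -0.011, -0.12 and -0.53 at oxygen 1 and -1.67, -1.96 and -2.49 after starvation. Cxcl1 in knockout cells read -1.39, -0.77 and -2.25 in the controls, 0.62, -0.14 and -0.45 at oxygen 1 and -2.14, -1.64 and -2.23 after starvation. All samples at oxygen 1 lay above all controls, while the starved samples overlapped them. Cxcl1 rose at oxygen 1 by 1.40 ± 0.35 in wild-type and by 1.48 ± 0.35 in knockout cells (limma adjusted p = 0.00511 and 0.00330). Starvation changes of -0.42 ± 0.35 and -0.53 ± 0.35 did not pass (limma adjusted p = 0.548 and 0.391). Within slides the low oxygen change in knockout cells ranged over 0.98 to 1.90.

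Cxcl2, its neighbour and a ligand of the same receptor, fell after starvation. Cxcl2 read 1.09, 1.32 and 1.08 in the wild-type controls, 1.95, 1.69 and 1.82 at oxygen 1 and -0.46, -0.47 and -0.20 after starvation. Cxcl2 in knockout cells read 1.03, 1.09 and 0.99 in the controls, 2.28, 1.47 and 1.22 at oxygen 1 and -0.59, -0.54 and -0.84 after starvation. Starved samples were below 0 while every other sample was above it. Cxcl2 fell after starvation by 1.54 ± 0.20 in wild-type and by 1.70 ± 0.20 in knockout cells (limma adjusted p = 0.000118 and 4.66e-05). These are falls of 2.91-fold and 3.24-fold. Cxcl2 rose at oxygen 1 by 0.65 ± 0.20 in wild-type and by 0.62 ± 0.20 in knockout cells (limma adjusted p = 0.0174 and 0.0222). Within slides this rise was 0.59 in wild type and 0.24 to 1.30 in knockout. Cxcl2 lost its low oxygen call in wild type without replicate 1 of the wild-type samples at oxygen 1 (0.59), without wild-type control replicate 1 or 3 (0.62 and 0.61), with the slide as a fixed block (0.56) or without the 3 samples that stood apart (0.62). Cxcl2 lost its low oxygen call in knockout cells without replicate 1 of the knockout samples at oxygen 1 (0.31), without knockout control replicate 1 or 3 (0.61 and 0.60) or without the 3 samples that stood apart (0.60).

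Cxcl5, an ELR ligand best known from epithelium and stroma, had the largest fall of all members at oxygen 1. Cxcl5 read -2.72, -2.38 and -2.89 in the wild-type controls, -5.98, -6.43 and -6.49 at oxygen 1 and -2.62, -2.90 and -3.36 after starvation. Cxcl5 in knockout cells read -2.92, -3.04 and -3.40 in the controls, -6.32, -6.24 and -6.24 at oxygen 1 and -3.27, -3.40 and -2.78 after starvation. At oxygen 1 its probe was well above background in none of the wild-type and 2 of the knockout samples, and in all samples of the other groups. Where a group has no sample well above background, the fold is given as a bound, the brighter group's mean against the lowest signal well above background on each array of the dimmer group or the probe's own signal where that is higher. Cxcl5 fell at least 11.4-fold in wild-type cells (log2 change -3.64 ± 0.21, limma adjusted p = 9.91e-09) and by 3.15 ± 0.21 in knockout cells, 8.88-fold (limma adjusted p = 3.31e-08). The knockout mean at oxygen 1, -6.27, lay among the lowest signals well above background on those arrays (-6.85 to -5.83). The size of the knockout fall thus also rests on dim readings. Changes of Cxcl5 after starvation were -0.30 ± 0.21 and -0.032 ± 0.21 and did not pass (limma adjusted p = 0.460 and 0.950). Ppbp (Cxcl7), released by platelets, varied widely between replicates, and its changes of -0.47, -0.32, -0.20 and -0.86 in the same 4 responses did not pass. Of the 8 stromal and endothelial markers, all well above background in every group, 3 rose and 0 fell at oxygen 1 in wild type, and 2 rose and 1 fell in knockout. Their summed log2 signal was 2.50 to 2.74 in wild-type controls and 2.36 to 2.60 at oxygen 1, and 2.23 to 2.96 and 2.34 to 2.58 in knockout. Their part in the result was not tested.

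Pf4 (Cxcl4), a CXC ligand without the ELR motif that is stored in platelets and also made by macrophages, rose at oxygen 1 and, in wild type, after starvation. Pf4 read 2.65, 2.50 and 2.64 in the wild-type controls, 4.65, 3.99 and 5.05 at oxygen 1 and 3.65, 3.61 and 3.93 after starvation. Pf4 in knockout cells read 2.81, 2.64 and 2.83 in the controls, 5.03, 4.71 and 3.95 at oxygen 1 and 3.35, 3.72 and 3.55 after starvation. All stressed samples lay above all controls. Pf4 rose at oxygen 1 by 1.96 ± 0.26 in wild-type and by 1.80 ± 0.26 in knockout cells (limma adjusted p = 2.53e-05 and 5.24e-05). After starvation it rose by 1.13 ± 0.26 in wild type (limma adjusted p = 0.00814), and the change of 0.78 ± 0.26 in knockout did not pass (limma adjusted p = 0.0580). Pf4 lost its starvation call in wild type without the 3 samples that stood apart (1.06). Of 8 platelet and megakaryocyte markers, Itga2b and Gp1ba were well above background in no sample, 1 rose and 1 fell at oxygen 1 in either genotype, and 3 rose and 1 fell after starvation in wild type (2 and 1 in knockout). Their summed log2 signal was -1.32 to -0.99 in wild-type controls, -1.11 to -0.66 at oxygen 1 and -0.075 to 0.38 after starvation. In knockout cells it was -1.13 to -0.95, -1.10 to -0.72 and -0.41 to 0.25, and their part in the changes of Pf4 was not tested.

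Among the inflammatory CC ligands, Ccl5 (RANTES), which attracts T cells, monocytes and eosinophils, rose at oxygen 1. Ccl5 read 2.86, 2.89 and 3.04 in the wild-type controls, 4.88, 5.55 and 4.95 at oxygen 1 and 3.92, 3.29 and 3.18 after starvation. Ccl5 in knockout cells read 2.81, 2.72 and 2.64 in the controls, 5.38, 4.85 and 5.07 at oxygen 1 and 4.12, 2.90 and 3.24 after starvation. Samples at oxygen 1 lay above all others of their genotype. Ccl5 rose at oxygen 1 by 2.20 ± 0.27 in wild-type and by 2.38 ± 0.27 in knockout cells (limma adjusted p = 1.62e-05 and 6.83e-06). These are rises of 4.58-fold and 5.20-fold. Its starvation changes of 0.53 ± 0.27 and 0.70 ± 0.27 did not pass (limma adjusted p = 0.262 and 0.116). T and NK cells also make Ccl5. Of the 8 T, B and NK cell markers, Cd3g, Cd79a, Ncr1 and Cd8a were well above background in no sample, while Ms4a1 fell at oxygen 1 and Cd3e and Nkg7 did not pass. Their summed log2 signal was 1.03 to 1.15 in wild-type controls and 0.83 to 1.25 at oxygen 1, and 1.17 to 1.25 and 0.66 to 1.36 in knockout, and their part in the rise of Ccl5 was not tested.

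Ccl3 and Ccl4, the macrophage inflammatory proteins, were well above background in all samples and did not pass in any of the 4 responses. Over all 18 samples Ccl3 lay between 6.23 and 7.23, and Ccl4 between 6.08 and 6.75. The 95% intervals of the low oxygen change in wild type were -0.23 to 0.55 for Ccl3 and -0.44 to 0.065 for Ccl4, and those of the starvation change -0.64 to 0.14 and -0.59 to -0.082. Ccl6, a mouse ligand of Ccr1, fell under both stresses. Ccl6 read 4.02, 3.81 and 3.79 in the wild-type controls, 3.41, 3.13 and 3.45 at oxygen 1 and 3.28, 2.93 and 3.55 after starvation. Ccl6 in knockout cells read 3.89, 3.78 and 3.88 in the controls, 3.29, 3.08 and 2.71 at oxygen 1 and 2.92, 3.08 and 2.75 after starvation. Every stressed sample lay below every control of its genotype. Ccl6 fell at oxygen 1 by 0.54 ± 0.17 in wild-type and by 0.82 ± 0.17 in knockout cells (limma adjusted p = 0.0176 and 0.00108). Ccl6 fell after starvation by 0.62 ± 0.17 in wild-type and by 0.93 ± 0.17 in knockout cells (limma adjusted p = 0.0223 and 0.00152). Within slides the wild-type changes were -0.89 at oxygen 1 and -0.88 to -0.24 after starvation. Ccl6 lost its low oxygen call in wild type without replicate 2 of the wild-type samples at oxygen 1 (-0.44), without wild-type control replicate 1 (-0.47) or without the 3 samples that stood apart (-0.47). Ccl6 lost its starvation call in wild type without wild-type control replicate 1 (-0.55) or without replicate 1 or 2 of the starved wild-type samples (-0.63 and -0.46).

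Ccl9, another mouse ligand of Ccr1, rose slightly under both stresses. Ccl9 read 4.85, 4.81 and 4.74 in the wild-type controls, 5.14, 5.29 and 4.99 at oxygen 1 and 5.52, 5.29 and 5.30 after starvation. Ccl9 in knockout cells read 4.86, 4.79 and 4.62 in the controls, 5.06, 5.12 and 5.40 at oxygen 1 and 5.32, 5.30 and 5.43 after starvation. Controls lay below all stressed samples of their genotype. Ccl9 rose at oxygen 1 by 0.34 ± 0.11 in wild-type and by 0.44 ± 0.11 in knockout cells (limma adjusted p = 0.0256 and 0.00572). Ccl9 rose after starvation by 0.57 ± 0.11 in wild-type and by 0.59 ± 0.11 in knockout cells (limma adjusted p = 0.00300 and 0.00217). In knockout cells the low oxygen change within slides was 0.18 to 0.52. Ccl9 lost its low oxygen call in wild type without replicate 1 or 2 of the wild-type samples at oxygen 1 (0.34 and 0.26), without wild-type control replicate 2 or 3 (0.34 and 0.31), after quantile normalization (0.19), with no filter on dim probes (0.34), with the slide as a fixed block (0.30) or on the authors' deposited table (0.19). Ccl9 lost its low oxygen call in knockout cells after quantile normalization (0.28) or on the authors' deposited table (0.30).

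Cxcl10, an interferon-induced ligand of Cxcr3, fell after starvation. Cxcl10 read 2.07, 2.82 and 2.82 in the wild-type controls, 2.57, 2.80 and 2.64 at oxygen 1 and 1.33, 0.77 and 1.03 after starvation. Cxcl10 in knockout cells read 2.40, 2.29 and 2.24 in the controls, 2.82, 2.40 and 2.67 at oxygen 1 and 1.58, 1.02 and 1.28 after starvation. Starved samples lay below all others of their genotype, while the wild-type samples at oxygen 1 lay within the range of their controls. Cxcl10 fell after starvation by 1.52 ± 0.20 in wild-type and by 1.02 ± 0.20 in knockout cells (limma adjusted p = 0.000149 and 0.00323). These are falls of 2.87-fold and 2.02-fold, and within slides the wild-type change was -2.05 to -0.74. At oxygen 1 the changes were 0.10 ± 0.20 and 0.32 ± 0.20 and did not pass (limma adjusted p = 0.725 and 0.238). Cxcl9, the other ligand of Cxcr3 tested, did not pass against controls, at 1.04 and 0.70 at oxygen 1 and -0.76 and -1.02 after starvation in wild type and knockout. Cxcr3 itself, a receptor of activated T and NK cells, changed by 0.32, 0.18, 0.65 and 0.57 in the same order, and none passed.

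Cxcl14, a ligand made mostly by epithelium and stroma and without a settled receptor, rose after starvation. Cxcl14 read -2.56, -2.49 and -2.75 in the wild-type controls, -3.26, -3.21 and -3.75 at oxygen 1 and -0.54, -0.89 and -1.17 after starvation. Cxcl14 in knockout cells read -2.12, -2.09 and -3.12 in the controls, -2.43, -2.57 and -3.33 at oxygen 1 and -0.72, -0.72 and -1.24 after starvation. Starved samples lay above all others of their genotype. Cxcl14 rose after starvation by 1.73 ± 0.29 in wild-type and by 1.55 ± 0.29 in knockout cells (limma adjusted p = 0.000881 and 0.00208). These are rises of 3.33-fold and 2.92-fold. At oxygen 1 it fell by 0.80 ± 0.29 in wild type (limma adjusted p = 0.0398), and the change of -0.34 ± 0.29 in knockout did not pass (limma adjusted p = 0.389). Cxcl14 lost its low oxygen call in wild type without replicate 1 or 3 of the wild-type samples at oxygen 1 (-0.87 and -0.63), without wild-type control replicate 1, 2 or 3 (-0.78, -0.75 and -0.88) or with no filter on dim probes (-0.80). Cxcl12, the stromal ligand of Cxcr4 that holds blood stem cells and leukocytes in the marrow, fell at oxygen 1 in wild type. Cxcl12 read -3.46, -3.48 and -3.79 in the wild-type controls and -4.01, -4.26 and -4.52 at oxygen 1. Cxcl12 in knockout cells read -4.11, -3.69 and -3.99 in the controls and -4.17, -4.25 and -4.63 at oxygen 1. The wild-type groups did not overlap. Cxcl12 fell by 0.68 ± 0.20 in wild type (limma adjusted p = 0.0149), while the changes in knockout cells (-0.42 ± 0.20) and after starvation (-0.46 ± 0.20 and -0.29 ± 0.20) did not pass (limma adjusted p = 0.120, 0.176 and 0.430). A second probe of Cxcl12, well above background in 7 samples, changed at oxygen 1 by -0.67 in wild type and by -0.97 in knockout. Cxcl12 lost its low oxygen call in wild type without replicate 3 of the wild-type samples at oxygen 1 (-0.56), without wild-type control replicate 2 (-0.64) or with the slide as a fixed block (-0.51). Among the stromal markers, Col1a1 changed by 0.16 and 0.10 at oxygen 1, which did not pass, and fell after starvation (-3.43 and -3.52, limma adjusted p = 2.56e-06 and 1.72e-06). Of the 8 stromal and endothelial markers, 0 rose and 3 fell after starvation in wild type, and 0 rose and 2 fell in knockout. Their summed log2 signal after starvation was 1.73 to 2.57 in wild type and 2.25 to 2.67 in knockout. In starved knockout samples this sum rests mostly on Kdr and Lepr (means of 1.14 and 1.37), while Col1a2 fell there (-2.81, limma adjusted p = 5.08e-06). The part of the markers in the changes of Cxcl12 and Cxcl14 was not tested.

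Both membrane-bound ligands were measured. Cxcl16, which binds Cxcr6 and also takes up oxidised lipoprotein, rose under both stresses. Cxcl16 read 1.71, 1.47 and 1.34 in the wild-type controls, 2.06, 2.14 and 1.89 at oxygen 1 and 2.08, 2.13 and 2.38 after starvation. Cxcl16 in knockout cells read 1.40, 1.16 and 1.78 in the controls, 1.94, 1.88 and 1.89 at oxygen 1 and 1.86, 1.98 and 2.12 after starvation. Stressed samples lay above the controls of their genotype in every case. Cxcl16 rose at oxygen 1 by 0.52 ± 0.15 in wild-type and by 0.46 ± 0.15 in knockout cells (limma adjusted p = 0.0101 and 0.0211). Cxcl16 rose after starvation by 0.69 ± 0.15 in wild-type and by 0.54 ± 0.15 in knockout cells (limma adjusted p = 0.00509 and 0.0223). Within slides the ranges were 0.45 to 0.84 at oxygen 1 in knockout, 0.38 to 1.03 after starvation in wild type and 0.33 to 0.82 in knockout. Cxcl16 lost its low oxygen call in wild type without wild-type control replicate 3 (0.44). Cxcl16 lost its low oxygen call in knockout cells without replicate 1 of the knockout samples at oxygen 1 (0.44), without knockout control replicate 1 or 2 (0.43 and 0.31), with the slide as a fixed block (0.38), with the slide as a random block (0.36) or on first arrays only (0.36). Cxcl16 lost its starvation call in knockout cells without knockout control replicate 1 or 2 (0.51 and 0.40) or without replicate 2 or 3 of the starved knockout samples (0.54 and 0.47).

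Cx3cl1 (fractalkine), the ligand of Cx3cr1, fell after starvation. Cx3cl1 read -1.38, -1.03 and -1.23 in the wild-type controls, -0.76, -0.87 and -1.02 at oxygen 1 and -1.76, -1.93 and -1.79 after starvation. Cx3cl1 in knockout cells read -1.05, -1.05 and -1.23 in the controls, -0.85, -1.003 and -1.04 at oxygen 1 and -1.89, -1.77 and -1.64 after starvation. Starved samples lay below all others. Cx3cl1 fell after starvation by 0.61 ± 0.11 in wild-type and by 0.65 ± 0.11 in knockout cells (limma adjusted p = 0.00157 and 0.000969). At oxygen 1 it rose by 0.33 ± 0.11 in wild type (limma adjusted p = 0.0286), and the change of 0.15 ± 0.11 in knockout did not pass (limma adjusted p = 0.306). Within slides the starvation change was -0.90 to -0.38 in wild type and -0.84 to -0.41 in knockout, and the low oxygen change in wild type 0.50. Cx3cl1 lost its low oxygen call in wild type without replicate 1 or 2 of the wild-type samples at oxygen 1 (0.27 and 0.32), without wild-type control replicate 1 or 3 (0.25 and 0.32), with no filter on dim probes (0.33), with the slide as a fixed block (0.34) or without the 3 samples that stood apart (0.25). The proteases that shed Cx3cl1 and Cxcl16 from the membrane, Adam10 and Adam17, rose at oxygen 1 by 0.38 and 0.53 in wild type (limma adjusted p = 0.0241 and 0.00325) and by 0.58 and 0.59 in knockout (limma adjusted p = 0.00163 and 0.00130), and neither passed after starvation. Both proteases were singled out after their values were seen.

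Ccl25, the ligand of Ccr9 that guides T cells to thymus and gut, rose under both stresses. Ccl25 read -1.36, -1.35 and -1.39 in the wild-type controls, -0.62, -0.062 and -0.73 at oxygen 1 and -0.79, -0.86 and -0.95 after starvation. Ccl25 in knockout cells read -1.42, -1.41 and -1.30 in the controls, -0.40, -0.38 and -0.089 at oxygen 1 and -0.63, -1.001 and -0.81 after starvation. Controls lay close together and below all stressed samples. Ccl25 rose at oxygen 1 by 0.90 ± 0.15 in wild-type and by 1.08 ± 0.15 in knockout cells (limma adjusted p = 0.000247 and 4.12e-05). Ccl25 rose after starvation by 0.50 ± 0.15 in wild-type and by 0.56 ± 0.15 in knockout cells (limma adjusted p = 0.0402 and 0.0206). Ccl25 lost its starvation call in wild type without wild-type control replicate 1, 2 or 3 (0.50, 0.51 and 0.49), without replicate 1, 2 or 3 of the starved wild-type samples (0.46, 0.50 and 0.54), with no filter on dim probes (0.50), with the replicate number as a block (0.50), with the slide as a fixed block (0.50) or without the 3 samples that stood apart (0.54). Ccl25 lost its starvation call in knockout cells without knockout control replicate 1 or 2 (0.54 and 0.54), without replicate 1 or 3 of the starved knockout samples (0.47 and 0.56) or without the 3 samples that stood apart (0.60). The ligands of Ccr7 and Ccr10 did not pass in any of the 4 responses. Ccl19 changed by 0.23, 0.34, 0.22 and 0.31, in the order low oxygen in wild type and knockout, then starvation. Ccl21b changed by -0.40, -0.46, 0.23 and -0.10, and Ccl27a by -0.039, -0.091, 0.53 and 0.42. Ccl21a was well above background in 3 samples and Ccl21b in all, though they and Ccl21c are near-identical copies, as are Ccl27a and Ccl27b, so the signal cannot be assigned to 1 copy. Cxcl13, the B cell attractant, was well above background in 4 scattered samples and reached -2.66 in replicate 1 of the wild-type samples at oxygen 1 against -8.36 and -8.08 in the others.

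Among the receptors, Ccr3, the eotaxin receptor known from eosinophils and mast cells, rose most at oxygen 1. Ccr3 read -2.07, -2.11 and -2.26 in the wild-type controls, 0.86, 0.88 and 0.54 at oxygen 1 and -2.88, -2.37 and -2.32 after starvation. Ccr3 in knockout cells read -2.42, -2.35 and -2.06 in the controls, 0.70, 0.72 and 0.77 at oxygen 1 and -2.03, -2.74 and -1.84 after starvation. All samples at oxygen 1 lay above 0 and all others well below it, with no overlap. Ccr3 rose at oxygen 1 by 2.91 ± 0.20 in wild-type and by 3.01 ± 0.20 in knockout cells (limma adjusted p = 4.84e-08 and 3.16e-08). These are rises of 7.49-fold and 8.04-fold. After starvation the changes of -0.38 ± 0.20 and 0.073 ± 0.20 did not pass (limma adjusted p = 0.283 and 0.876). Of 8 markers of eosinophils, mast cells and basophils, Epx, Mcpt8 and Ms4a2 were well above background in no sample, and 3 were tested. Siglecf, an eosinophil and alveolar macrophage lectin, rose by 1.80 and 1.91 at oxygen 1 (limma adjusted p = 0.000104 and 5.56e-05), Kit fell by 1.12 and 0.96 (limma adjusted p = 0.0244 and 0.0491), and Il5ra did not pass. The summed log2 signal of the list was -0.88 to -0.86 in wild-type controls and 0.17 to 1.36 at oxygen 1. In knockout it was -0.90 to -0.70 and 0.28 to 1.25. This sum rests mostly on Siglecf, which in knockout cells averaged -1.04 in controls and 0.86 at oxygen 1. Il5ra averaged -5.49 and -5.20 in the same groups, and Kit -5.34 and -6.30. The part of these cell types in the rise of Ccr3 was not tested.

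Cxcr4, the receptor of Cxcl12, rose under both stresses. Cxcr4 read -2.29, -2.18 and -2.13 in the wild-type controls, -0.50, 0.08 and -0.32 at oxygen 1 and 0.10, 0.0026 and -0.14 after starvation. Cxcr4 in knockout cells read -2.36, -2.30 and -2.64 in the controls, -0.48, -0.35 and 0.055 at oxygen 1 and -0.018, 0.058 and 0.0081 after starvation. Controls were far below all stressed samples, which overlapped each other. Cxcr4 rose at oxygen 1 by 1.96 ± 0.16 in wild-type and by 2.18 ± 0.16 in knockout cells (limma adjusted p = 1.80e-07 and 5.65e-08). Cxcr4 rose after starvation by 2.19 ± 0.16 in wild-type and by 2.45 ± 0.16 in knockout cells (limma adjusted p = 5.82e-07 and 2.10e-07). These are rises of 3.88-fold and 4.52-fold at oxygen 1 and of 4.57-fold and 5.46-fold after starvation.

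Cx3cr1, the fractalkine receptor of resident monocytes and macrophages, rose under both stresses as well. Cx3cr1 read -2.33, -2.54 and -2.13 in the wild-type controls, 0.47, 0.45 and -0.059 at oxygen 1 and -0.51, -0.30 and 0.069 after starvation. Cx3cr1 in knockout cells read -1.55, -0.67 and -2.04 in the controls, 0.41, 1.02 and 0.14 at oxygen 1 and -0.86, 0.60 and -0.15 after starvation. Wild-type stressed samples lay above all wild-type controls, and in knockout cells replicate 2 of the controls lay above replicate 1 of the starved samples. Cx3cr1 rose at oxygen 1 by 2.62 ± 0.37 in wild-type and by 1.95 ± 0.37 in knockout cells (limma adjusted p = 5.05e-05 and 0.000625). Cx3cr1 rose after starvation by 2.09 ± 0.37 in wild-type and by 1.29 ± 0.37 in knockout cells (limma adjusted p = 0.00135 and 0.0300). Within slides the changes in knockout cells were 0.71 to 2.20 at oxygen 1 and 0.84 to 1.89 after starvation. A second probe of Cx3cr1 changed the same way in all 4 responses. Cx3cr1 lost its starvation call in knockout cells without knockout control replicate 1 or 3 (1.22 and 0.98), without replicate 2 or 3 of the starved knockout samples (0.92 and 1.29), with no filter on dim probes (1.29) or without the 3 samples that stood apart (0.98).

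Ccr8, a receptor of regulatory T cells and some macrophages, and Ccr9, the receptor of Ccl25, rose at oxygen 1. Ccr8 read -4.11, -4.07 and -3.92 in the wild-type controls, -2.93, -2.71 and -2.95 at oxygen 1 and -3.58, -3.54 and -4.33 after starvation. Ccr8 in knockout cells read -3.75, -4.29 and -4.24 in the controls, -2.73, -2.64 and -2.78 at oxygen 1 and -3.70, -4.12 and -3.91 after starvation. Ccr8 rose at oxygen 1 by 1.17 ± 0.19 in wild-type and by 1.37 ± 0.19 in knockout cells (limma adjusted p = 0.000205 and 4.39e-05). The groups at oxygen 1 did not overlap their controls. A second probe of Ccr8 was well above background in no sample. Ccr9 read -5.59, -5.29 and -5.46 in the wild-type controls, -4.26, -4.70 and -4.07 at oxygen 1 and -5.55, -5.26 and -6.01 after starvation. Ccr9 in knockout cells read -5.33, -5.53 and -5.57 in the controls, -3.84, -4.98 and -4.72 at oxygen 1 and -5.37, -5.76 and -5.58 after starvation. Ccr9 rose at oxygen 1 by 1.10 ± 0.26 in wild-type and by 0.96 ± 0.26 in knockout cells (limma adjusted p = 0.00328 and 0.00741). Again no sample at oxygen 1 overlapped the controls. After starvation Ccr8 changed by 0.21 ± 0.19 and 0.18 ± 0.19 and Ccr9 by -0.16 ± 0.26 and -0.09 ± 0.26, and none passed. Within slides the low oxygen changes in knockout cells were 0.85 to 1.81 for Ccr8 and 0.49 to 1.82 for Ccr9. Ccr9 kept its low oxygen call in knockout cells without replicate 1 of the knockout samples at oxygen 1, at a log2 change of 0.63.

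Ackr2 and Ccr10 were well above background at oxygen 1 alone. Ackr2 is a decoy receptor that takes up and degrades inflammatory CC chemokines. Ackr2 read -7.48, -6.54 and -7.11 in the wild-type controls, -4.65, -4.80 and -4.74 at oxygen 1 and -6.72, -7.19 and -6.85 after starvation. Ackr2 in knockout cells read -7.09, -7.29 and -6.65 in the controls, -4.95, -4.74 and -4.85 at oxygen 1 and -6.56, -6.78 and -6.44 after starvation. Samples at oxygen 1 lay above all others. Ackr2 rose at least 3.31-fold in wild-type and 2.84-fold in knockout cells (log2 changes 2.32 ± 0.21 and 2.16 ± 0.21, limma adjusted p = 6.31e-07 and 1.21e-06), and no starved sample was well above background. A second probe of Ackr2 was well above background in no sample. Ccr10 is the receptor through which Ccl27 and Ccl28 draw T and plasma cells to skin and mucosa. Ccr10 read -6.71, -7.14 and -8.05 in the wild-type controls, -5.33, -5.47 and -5.73 at oxygen 1 and -7.53, -6.40 and -7.47 after starvation. Ccr10 in knockout cells read -6.87, -7.37 and -6.74 in the controls, -5.58, -5.35 and -6.43 at oxygen 1 and -6.73, -6.98 and -8.04 after starvation. Samples at oxygen 1 lay above the controls of their genotype. Ccr10 rose at least 1.92-fold in wild-type and 1.48-fold in knockout cells (log2 changes 1.79 ± 0.41 and 1.20 ± 0.41, limma adjusted p = 0.00309 and 0.0303). Within slides the knockout change ranged over -0.10 to 2.03. Ccr10 lost its low oxygen call in knockout cells without replicate 1 or 2 of the knockout samples at oxygen 1 (1.10 and 0.99), without knockout control replicate 1 or 2 (1.27 and 1.02), after quantile normalization (0.97), with no filter on dim probes (1.20), with the slide as a fixed block (0.70), with the slide as a random block (0.89), on first arrays only (0.96) or on the authors' deposited table (0.75).

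For 3 receptors past the threshold, no group had all its samples well above background, so their sizes rest on dim readings. Ccr2, the receptor of Ccl2 that brings monocytes into tissue, was well above background in 2 samples at oxygen 1 and 1 starved sample of each genotype and in no control. Ccr2 was at least 1.86-fold and 1.45-fold higher at oxygen 1 (log2 changes 1.70 ± 0.45 and 1.60 ± 0.45, limma adjusted p = 0.00773 and 0.0109) and at least 1.69-fold higher after starvation in wild type (1.56 ± 0.45, limma adjusted p = 0.0337), while 1.07 ± 0.45 in knockout did not pass (limma adjusted p = 0.146). Within slides Ccr2 changed by 0.23 to 1.37 in knockout cells at oxygen 1. Ccr2 lost its low oxygen call in knockout cells without knockout control replicate 3 (1.18). Ccr2 lost its starvation call in wild type without wild-type control replicate 1 or 2 (1.36 and 1.55), without replicate 3 of the starved wild-type samples (0.98), after quantile normalization (1.43), with no filter on dim probes (1.56), on the authors' deposited table (1.42) or without the 3 samples that stood apart (0.79). Cxcr2, the neutrophil receptor of the ELR ligands, was well above background in 1 wild-type and 2 knockout samples at oxygen 1 and in 1 starved knockout sample, and at oxygen 1 it rose at least 1.26-fold and 1.53-fold (log2 changes 0.92 ± 0.26 and 1.17 ± 0.26, limma adjusted p = 0.0102 and 0.00198). Within slides Cxcr2 changed by 1.54 in wild type and 0.24 to 2.15 in knockout. Cxcr2 lost its low oxygen call in wild type with the slide as a fixed block (0.76), on the authors' deposited table (0.70) or without the 3 samples that stood apart (0.76). Of 9 neutrophil markers tested, 5 fell and 2 rose in wild type and 4 fell and 2 rose in knockout at oxygen 1. Their summed log2 signal was 3.60 to 4.24 in wild-type controls and 2.71 to 3.36 at oxygen 1, and 3.30 to 3.99 and 2.46 to 3.34 in knockout, and their part in the result was not tested. Ccr1l1, an orphan relative of Ccr1, was well above background in at most 1 sample of any group, and its log2 changes of 2.26, 2.30, 2.08 and 1.93 passed in all 4 responses. With no control well above background these changes are no measured sizes: the bound was at least 1.02-fold higher at oxygen 1 in both genotypes, and no fold could be given after starvation. Ccr7, which takes dendritic cells to lymph nodes, and Cxcr6, the receptor of Cxcl16, did not pass against controls. Their changes at oxygen 1 were -0.87 and 0.25 in wild type and -0.91 and 0.36 in knockout, where neither overlapped its controls.

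**Figure D4:**
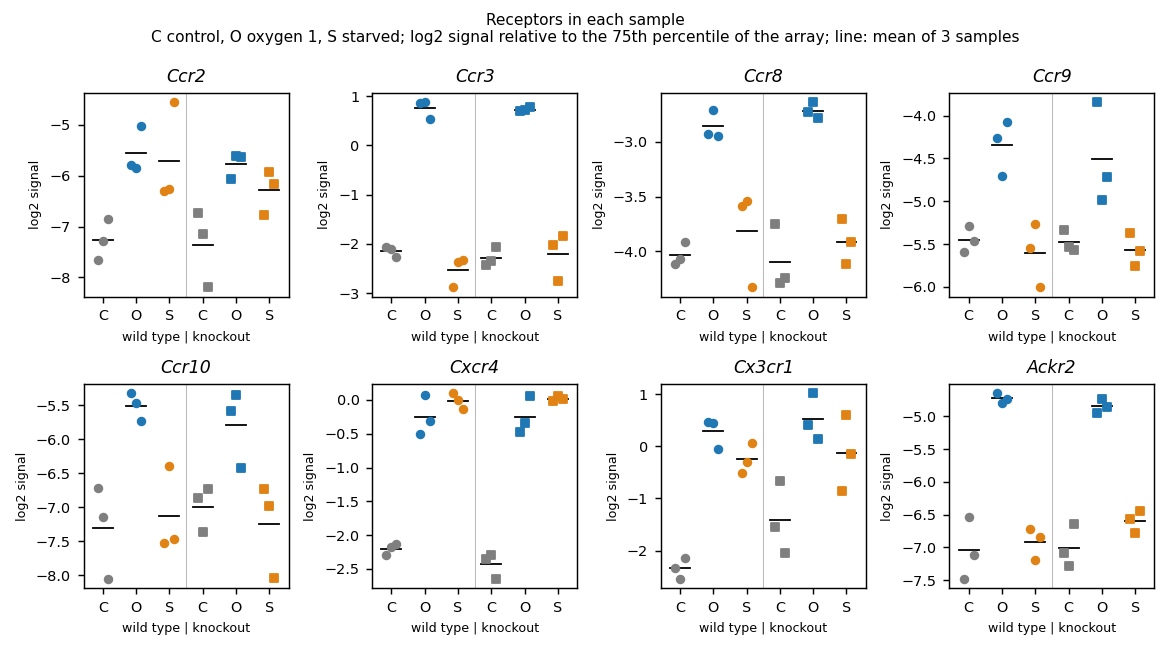
Log2 signal minus each array's 75th percentile (vertical axis, a separate range for each gene) in each of 18 samples for 8 receptors, of which Ccr2 is a dim reading; grey is control, blue oxygen 1, orange starved, circles are wild type and squares knockout, and lines are means of 3 samples. Ccr3, Ccr8, Ccr9 and Ackr2 lie above all control and starved samples at oxygen 1, a knockout sample of Ccr10 at oxygen 1 lies within the range of the starved samples, and Cxcr4 and Cx3cr1 lie above the controls under both stresses in most samples.

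The difference between the stresses was tested directly, as oxygen 1 minus starved. In wild-type cells 21 of 41 members passed the limma threshold, 15 higher at oxygen 1 and 6 higher after starvation, against 38.6% of all genes (20.1% and 18.5%). In knockout cells 24 passed, 18 and 6, against 37.6% (19.4% and 18.2%). Ackr2 and Ccr10, higher at oxygen 1 in both genotypes, were well above background there alone, and Cxcr2 in wild type likewise. For them a difference this way was in part built into the selection. Of the receptors, 6 were higher and 0 lower at oxygen 1 in wild type (7 and 1 in knockout). Among genes well above background in all 18 samples these counts were 4 and 1 (4 and 1), against 22.1% and 21.1% of all genes (21.2% and 21.0%). With normexp the splits were 7 and 6 in wild type and 9 and 5 in knockout, against 9.56% and 11.3% and 10.4% and 9.42% of all genes. The slide as a fixed block ended the wild-type calls of Ccl21b, Ccl25, Cxcl3 and Pf4 and the knockout calls of Ccr10 and Ccr7. Samples of the stresses did not overlap for 25 members in wild type and 26 in knockout, against 47.1% and 50.5% of all genes. Higher after starvation in both genotypes were Ccl7 (-3.36 ± 0.29 in wild type and -3.10 ± 0.29 in knockout, limma adjusted p = 4.80e-07 and 1.06e-06), Ccl2 (-2.13 ± 0.21 and -1.79 ± 0.21, limma adjusted p = 2.39e-06 and 1.26e-05), Cxcl14 (-2.54 ± 0.29 and -1.88 ± 0.29, limma adjusted p = 8.14e-06 and 0.000126), Cxcl5 and Ccl8. Cxcl5 differed by -3.34 ± 0.21 and -3.12 ± 0.21 (limma adjusted p = 2.42e-08 and 4.88e-08), at least 9.29-fold in wild type, where no sample at oxygen 1 was well above background. Ccl8 differed by -1.12 ± 0.38 and -1.20 ± 0.38 (limma adjusted p = 0.0290 and 0.0206), and both Ccl8 calls were lost under some of the alternatives. Among the members higher at oxygen 1 were Ccr3 (3.29 ± 0.20 and 2.93 ± 0.20, limma adjusted p = 1.69e-08 and 5.23e-08), Cxcl2 (2.19 ± 0.20 and 2.31 ± 0.20, limma adjusted p = 8.39e-07 and 5.10e-07) and Ccl5 (1.66 ± 0.27 and 1.68 ± 0.27, limma adjusted p = 0.000228 and 0.000209). Cxcl9, which did not pass against controls, was higher at oxygen 1 than after starvation by 1.80 ± 0.40 and 1.72 ± 0.40 (limma adjusted p = 0.00238 and 0.00331). Its probe was well above background in 1 starved sample of each genotype, so these sizes rest in part on dim readings. A second Cxcl9 probe was well above background in 3 samples. Against controls it changed by -0.25 and 0.63 at oxygen 1 and by -1.13 and 0.19 after starvation, not always in the direction of the tested probe. With normexp both of these Cxcl9 calls ended, at -0.011 in wild type, where the direction turned, and 0.45 in knockout. For Cxcr4 the difference was -0.23 (-0.57 to 0.098, 95% interval) and -0.27 (-0.60 to 0.061), and for Cx3cr1 0.54 (-0.25 to 1.32) and 0.66 (-0.13 to 1.45), and neither passed. Cxcl9 kept its oxygen 1 minus starved call in knockout cells on the mean of probes, at a log2 change of 1.08.

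Many of these genes are neighbours in the genome, and the order is given here from RefSeq (GRCm38.p6), without coordinates since the array was designed on another build. On chromosome 5 the order is Cxcl5, Ppbp, Pf4, Cxcl3, Cxcl15, Cxcl1 and Cxcl2 with no gene in between. At oxygen 1 the members past the threshold were Pf4, Cxcl3, Cxcl1 and Cxcl2, which rose, and Cxcl5 at the edge, which fell. After starvation Pf4 (in wild type) and Cxcl3 rose and Cxcl2 fell. On chromosome 11 Ccl2, Ccl7, Ccl11, Ccl12, Ccl8 and Ccl1 follow each other with 1 lncRNA gene among them, and Ccl2, Ccl7, Ccl12 and Ccl8 rose after starvation, while at oxygen 1 Ccl2 (in wild type) and Ccl7 fell and Ccl12 rose. Further along chromosome 11, Ccl5, Ccl9, Ccl6, Ccl3 and Ccl4 lie in this order, of which Ccl5 and Ccl9 rose, Ccl6 fell and Ccl3 and Ccl4 did not pass at oxygen 1. On chromosome 9, Ccr1l1, Ccr3 and Ccr2 are adjacent and all rose at oxygen 1, whereas after starvation Ccr1l1 and, in wild type, Ccr2 rose and Ccr3 between them did not pass.

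**Figure D5:**
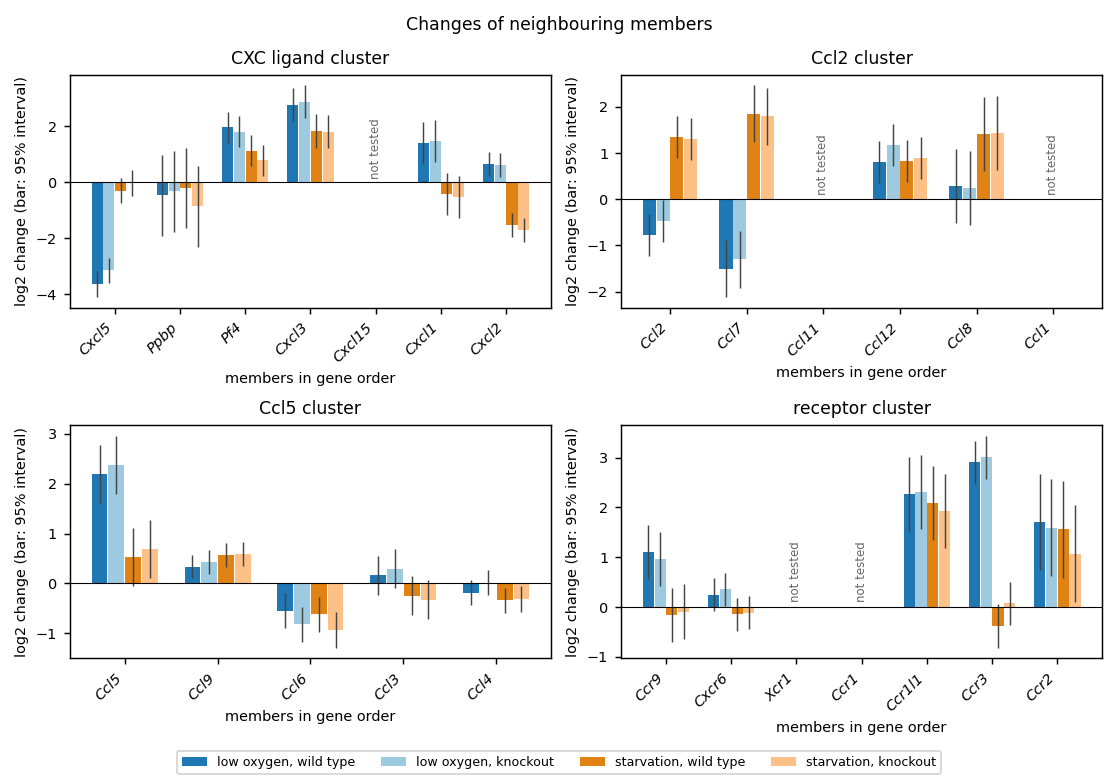
Log2 change (vertical axis, bars with 95% intervals) of members in gene order in 4 genomic clusters, for low oxygen in wild type (dark blue) and knockout (light blue) and starvation in wild type (dark orange) and knockout (light orange); members that were not tested have no bar. Within a cluster, Cxcl5 fell and Cxcl3 rose, and Ccl7 fell and Ccl12 rose, at oxygen 1 in both genotypes.

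Knockout and wild-type cells were compared in each condition. In controls, at oxygen 1 and after starvation, 0 of the 41 members and 0% of all genes passed the limma threshold in each, and the same held for both tests of whether a response differed between genotypes. At an unadjusted p under 0.05 there were 2, 2 and 0 of the 41 members in the conditions. In the tests of the low oxygen and starvation responses there were 1 and 0. In the same order, 284, 340, 388, 221 and 205 of all 20568 genes tested had such a p. These members were Cx3cr1 and Cxcl5 in controls, Ccl21a and Cxcl14 at oxygen 1 and Cxcl13 in the low oxygen response. Groups did not overlap for 5 members in controls, against 5% of all genes, and for 1 and 1 at oxygen 1 and after starvation, against 4.38% and 5.19%. They were Ccl12, Ccl5, Cx3cr1, Cxcl5 and Cxcr4 in controls, Ccl21a at oxygen 1 and Cxcl2 after starvation, named after their values were seen. The member of lowest unadjusted p in controls was Cx3cr1. Its 3 wild-type samples read -2.33, -2.54 and -2.13, and its 3 knockout samples -1.55, -0.67 and -2.04. The groups did not overlap, yet the difference of 0.91 ± 0.37 (95% interval 0.13 to 1.70) did not pass (limma adjusted p = 1.00). Among the main responders, the low oxygen response of knockout minus wild-type cells was 0.10 (-0.51 to 0.71) for Ccr3, 0.12 (-0.72 to 0.96) for Cxcl3 and 0.49 (-0.16 to 1.14) for Cxcl5. The starvation response differed by -0.062 (-0.93 to 0.81) for Ccl7, 0.26 (-0.21 to 0.73) for Cxcr4 and -0.15 (-0.76 to 0.45) for Cxcl2. Over the 26 members that met the rule for a description by sample, the 95% half-interval of such a difference of responses ran from 0.33 to 1.25.

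The genes that induce, transmit and remove chemokines were read from 5 lists, beside a median change of all genes of 0.032 at oxygen 1 and 0.018 after starvation in wild type. Of all genes, 20.8% passed as higher and 18.3% as lower at oxygen 1 in wild type (21.6% and 18.6% in knockout), and 6.57% and 6.11% after starvation (7.25% and 6.45%). Genes named first are those of lowest adjusted p in a list, with values in wild type and then in knockout. Of 21 inducing cytokines and their receptors, 9 rose and 4 fell at oxygen 1 in wild type (11 and 4 in knockout), and 4 rose and 4 fell after starvation (4 and 5), with wild-type medians of 0.37 and -0.074. Il1b, which drives neutrophil chemokines, rose at oxygen 1 (2.95 and 3.32, limma adjusted p = 7.47e-07 and 2.15e-07), as did the interleukin-1 receptor Il1r1 (2.10 and 2.43, limma adjusted p = 2.02e-07 and 4.30e-08). After starvation Il1r1 (2.61 and 2.91, limma adjusted p = 3.22e-07 and 9.23e-08) and Il1a (2.18 and 1.85, limma adjusted p = 0.000118 and 0.000416) rose. Il1a averaged -8.09 in knockout controls, below the lowest signal well above background on each of their arrays (-6.80 to -6.16). The size of its rise in knockout cells thus rests on dim readings. Named after their values were seen, Tnf fell at oxygen 1 (-1.12 and -1.37, limma adjusted p = 1.48e-05 and 1.94e-06) and Il6 rose there (1.08 and 1.23, limma adjusted p = 0.000166 and 4.74e-05) and fell after starvation (-0.88 and -1.10, limma adjusted p = 0.00311 and 0.000561).

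Of 28 regulators of chemokine transcription, 11 rose and 5 fell at oxygen 1 in wild type (11 and 5 in knockout), and 1 rose and 4 fell after starvation (1 and 3), with wild-type medians of 0.10 and -0.13. Tnfaip3, an NF-kappaB target that restrains the pathway, rose at oxygen 1 (1.00 and 1.10, limma adjusted p = 2.40e-05 and 9.02e-06), and the immediate-early factor Egr1 fell (-1.98 and -1.90, limma adjusted p = 0.000117 and 0.000158). After starvation the AP-1 subunit Fos rose (0.88 and 0.92, limma adjusted p = 0.000109 and 6.19e-05) and the NF-kappaB subunit Relb fell (-0.61 and -0.52, limma adjusted p = 0.00157 and 0.00519). Of 39 genes that signal from chemokine receptors, 6 rose and 15 fell at oxygen 1 in wild type (6 and 17 in knockout), and 5 rose and 10 fell after starvation (3 and 9), with wild-type medians of -0.15 and -0.13. Grk6, a kinase that desensitises Cxcr4 and other receptors, fell at oxygen 1 (-1.05 and -1.23, limma adjusted p = 1.44e-06 and 2.61e-07). Of the regulators of G-protein signalling, which shorten chemokine signals, Rgs3 fell at oxygen 1 (-0.91 and -0.80, limma adjusted p = 1.98e-06 and 6.14e-06). After starvation Rgs1 (1.92 and 1.99, limma adjusted p = 1.56e-06 and 8.81e-07) and Rgs2 (2.29 and 2.21, limma adjusted p = 2.51e-08 and 2.55e-08) rose while Rgs16 fell (-1.61 and -1.70, limma adjusted p = 7.37e-07 and 4.00e-07).

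Of 17 other chemoattractant receptors, 7 rose and 3 fell at oxygen 1 in wild type (9 and 2 in knockout), and 1 rose and 2 fell after starvation (4 and 2), with wild-type medians of 0.31 and 0.11. Ccrl2, a chemerin-binding relative of the chemokine receptors, rose at oxygen 1 (1.82 and 1.98, limma adjusted p = 2.86e-07 and 1.13e-07), as did Csf1r, the receptor of M-CSF (1.06 and 0.98, limma adjusted p = 4.09e-06 and 8.49e-06), and the leukotriene B4 receptor Ltb4r1 (1.35 and 1.54, limma adjusted p = 3.26e-05 and 8.41e-06). After starvation the sphingosine-1-phosphate receptor S1pr1 rose (1.98 and 1.82, limma adjusted p = 1.02e-06 and 1.75e-06) and the formyl peptide receptor Fpr1 fell (-0.66 and -0.64, limma adjusted p = 0.000256 and 0.000301). Of 15 genes that process or clear chemokines, 9 rose and 2 fell at oxygen 1 in wild type (8 and 2 in knockout), and 6 rose and 0 fell after starvation (6 and 1), with wild-type medians of 0.49 and 0.27. Sdc4 and Sdc1, proteoglycans whose heparan sulfate binds chemokines, rose at oxygen 1 (Sdc4 by 1.79 and 1.75, limma adjusted p = 3.48e-09 and 3.93e-09, and Sdc1 by 1.57 and 1.73, limma adjusted p = 5.59e-06 and 1.96e-06). Mmp12, a macrophage protease that cleaves several chemokines, and the aminopeptidase Anpep rose after starvation (Mmp12 by 3.00 and 3.34, limma adjusted p = 8.71e-06 and 2.43e-06, and Anpep by 1.70 and 2.004, limma adjusted p = 4.12e-05 and 7.62e-06).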

How the data were processed

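Expression was measured on Agilent mouse arrays of 1 colour, 20 arrays on 5 slides for 18 samples, of which 2 samples had 2 arrays each, averaged before the fit. Per the file headers, spot intensities were background-subtracted and detrended within each array by the scanner software, with no normalization between arrays, and the array was designed on build mm9. A table of log2 values was also deposited. The submitters' processing notes name limma for it, without a version. Its column medians are all 5.60, and its values correlate with the scanner values of the same array at 0.998 to 1.00 (slope 0.986 to 1.02, across genes). Its further steps are not given in the sources used here, and it served as an alternative.

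Spots marked as outliers (166 to 390 an array) and control spots were left out, spots of a probe were averaged, and the 75th percentile of each array's processed signal was subtracted on the log2 scale. A gene was represented by its brightest probe that was well above background in at least 3 samples. Probes were named through RefSeq accessions, which gave 66.1% of probes a symbol. Differences were tested with limma 3.58.1 (lmFit and eBayes, two-sided) in R 4.3.3 with 6 group means over all 18 samples (12 residual degrees of freedom), Benjamini-Hochberg adjusted over the 20568 genes tested, at a threshold of 0.05. Errors after ± are standard errors of the fit unless stated. With 3 arrays a group, their number limits the precision. Missing values (0.117%) after outlier removal were left out of the fit of that gene.

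A member was described sample by sample when at least 1 group had its probe well above background in each of 3 samples and it passed in a stress response with groups that do not overlap. The values of 1 member and 1 marker gene are not reported here, although both stay in the counts. Other genes were named from lists as the 2 or 3 of lowest adjusted p. Members and lists were chosen with earlier results of these data known. The alternatives were normexp (offset 50), quantile normalization, another percentile, other filters on dim probes, replicate and slide blocks, the mean of probes, first arrays only, the deposited log2 table, each sample left out and the 3 samples apart left out. In knockout cells, same-numbered samples at oxygen 1 and after starvation deviated together (correlations 0.174 to 0.192 in all 3 pairs, all over the 0.1 set for a pairing), which counts as a pairing in these data. The labels do not say whether same-numbered samples share a mouse. With the replicate number as a block, 24 members passed in that comparison, as without it.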

Additional observations from a re-analysis of the deposited data

How the results depend on the processing

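The 86 calls of members in the 4 stress responses were refitted under the alternatives, 1533 fits in all. The call was kept in 1389 of these fits and lost in 144, and its direction reversed in none of them. The normexp background correction ended 35 of the 86 calls, and 61 calls were kept under every alternative other than normexp. With normexp, 14 members passed at oxygen 1 in wild type and 16 in knockout, 11 and 10 after starvation, and 13 and 14 in the comparison of oxygen 1 with starved samples in wild type and knockout. Of all genes, 20.7% and 22.1%, 5.99% and 5.08%, and 20.8% and 19.8% passed with normexp, in the same order. Normexp also shifted the median of all genes by over 0.1, to 0.16 in the wild-type starvation response, to -0.20 in the wild-type comparison of the stresses, to -0.12 between genotypes after starvation and to -0.13 in the genotype difference of the starvation response. Without a filter on dim probes that median was 0.21 at oxygen 1 in wild type and 0.16 in the wild-type comparison of the stresses. In that last comparison, normexp reversed the values of Ackr2 (-0.00018), Ccr10 (-0.18), Cxcl9 (-0.011) and Cxcr2 (-0.29). Within slide 1, Ccr10 in knockout cells changed by -0.10 at oxygen 1. The causes were not tested.

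Leaving out 1 sample at a time, 22 to 27 members passed at oxygen 1 in wild type and 20 to 23 in knockout, 15 to 18 and 12 to 16 after starvation, and 17 to 20 and 20 to 23 between the stresses. The shares of all genes were then 32.2% to 36.7% and 33.8% to 39.6%, 8.25% to 12.5% and 9.78% to 10.9%, and 30.5% to 40.6% and 29.6% to 34.4%. Without the 3 samples that stood apart, the counts were 25 and 24, 14 and 17, and 20 and 25. Of all genes, 22.1% then passed as higher and 18.4% as lower at oxygen 1 in wild type (21.9% and 20.0% in knockout). After starvation these shares were 6.43% and 4.86% (5.99% and 5.37%), and between the stresses 21.3% and 22.5% (21.2% and 20.3%). In the 3 genotype comparisons and both tests of a difference between responses, 0 members passed under every alternative. With the replicate number as a block, 27 and 24 members passed at oxygen 1 in wild type and knockout, 18 and 17 after starvation, and 22 and 24 between the stresses, against 40.1% and 41.2%, 13.0% and 14.3%, and 39.7% and 38.6% of all genes, and of the calls in the 4 stress responses that of Ccl25 after starvation in wild type was lost. Only in the knockout comparison of the stresses was the correlation of same-numbered samples over 0.1 in all 3 pairs. In the other stress comparisons it was over 0.1 in 0 to 2 pairs (-0.079 to 0.308 at oxygen 1 in wild type and 0.054 to 0.262 after starvation in knockout cells, for example), so there the number was not taken as a pairing. Signal over background limits the dim members: Ccr2, Ccr1l1, Cxcr2, Ccl21a and Cxcl13 had no group with all samples well above background, and for 20 members too few samples were above it to be tested.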
